A study of Mus musculus with 18 samples.

Results

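Mouse embryonic fibroblasts were compared 40 h and 34 h after a pulse of dexamethasone, a glucocorticoid drug used to bring the circadian clocks of cultured cells into step. The 6 arrays were those whose titles gave 40 h (3 arrays) or 34 h (3 arrays), out of 18 in the series, which sampled 6 times between 22 h and 46 h. At both times the cells were wild type fibroblasts of C57BL/6 background, made at embryonic day 13 from 2 mice of a line that carries a Bmal1 knockout allele, and exposed to 100 nM dexamethasone for 2 h. No untreated or vehicle cells were among the 18 samples, so every level below is a level after the same treatment. The labels call the 3 samples of a time biological replicates and do not say which cultures or which of the mice they came from. The p-values therefore speak only of the spread among these samples, which may be technical, and the precision of each value is limited by having 3 arrays a time.

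Levels are log2 of the deposited probe set intensity plus 16, quantile normalized, with 1 probe set for each of 19938 genes. Differences are 40 h minus 34 h on that scale, with the standard error (SE) of a linear model fitted with limma to all 18 arrays, and a gene was called at a Benjamini-Hochberg adjusted p under 0.05. Before normalization the median intensity was 209, 207 and 204 in the 40 h arrays, against 202, 196 and 201 in those of 34 h. Lower quartiles of 90.6, 90 and 88.7 against 86.9, 81.5 and 86.3 did not overlap either, whereas the upper quartiles did. Quantile normalization removes such a shift, which runs with the times compared, and its cause was not tested. After normalization, pairs of the 6 arrays correlated at 0.9935 to 0.9974 across genes. Replicates of a time were not always the most alike, since 40 h replicate 2 correlated at 0.9974 with 34 h replicate 1, against 0.9943 and 0.9958 with the other 40 h arrays. Among all 18 arrays, 40 h replicate 2 correlated best with 46 h replicate 1, at 0.9978. Of 15 fibroblast markers 12 were above the 75th percentile of all genes, with Fn1, Vim and Dcn near the top, while Fap was at the 7.19th percentile and Thy1 at the 37.5th. Of the markers of 7 other cell types, Sox9 alone exceeded the 75th percentile.

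Dividing cells make the transcripts of mitosis in the second part of the cycle, when DNA has been copied and the spindle and kinetochores are built, and these transcripts are repressed in resting cells by complexes that bind the cell cycle genes homology region, or CHR, near their starts. In the circadian clock, BMAL1 and CLOCK bind E-boxes and drive the Per and Cry genes, whose proteins inhibit them, and Nr1d1, whose protein represses Bmal1. Fibroblasts in culture keep this clock, and a glucocorticoid pulse aligns it between cells.

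Most genes that differed between the times were lower at 40 h, and many of them act in mitosis. Of 19938 genes, 164 were called (0.823%), of which 19 were higher at 40 h (0.0953%) and 145 lower (0.727%). The falls were modest, between 0.20 and 0.77 log2 with a median of -0.44, and 21 of them passed 1.5-fold. The rises ran between 0.22 and 0.73 with a median of 0.37, and 4 passed 1.5-fold. No called gene passed 2-fold, and the median difference of all genes was 0. In each of the 164 genes the 3 arrays of 40 h did not overlap the 3 of 34 h, as was so in 14.8% of all genes (6.39% higher at 40 h and 8.41% lower). Of the 145 falls, 31 were on the lists of G2/M or G1/S genes. The lists are not complete, and mitotic genes such as Spc25 and Kif14 fell without being on them. Leaving out single arrays moved the number called by over 1.5 times: it was 48 without 40 h replicate 1, 351 without 40 h replicate 2, 79 without 40 h replicate 3, 84 without 34 h replicate 1 and 52 without 34 h replicate 2. Leaving out any 1 of the 6 arrays kept 43 of the calls in each case, 41 of them lower and 2 higher. Of the 43, 15 belong to the list of G2/M and mitotic genes described next, and Spc25, Kif14, Kif18b and Kif22 are among the others.

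**Figure D1:**
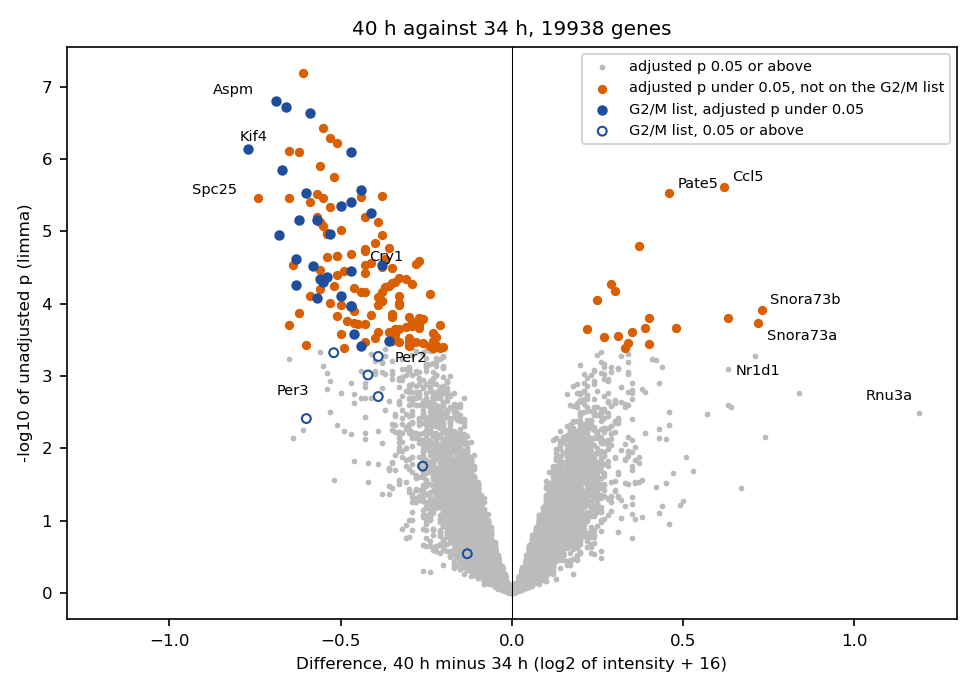
Each point is 1 of 19938 genes, with the difference of 40 h minus 34 h on the x axis (log2 of intensity plus 16) and the unadjusted limma p as -log10 on the y axis. Called genes are orange or, on the G2/M list, filled blue; 145 of the 164 lie left of 0, among them all 30 filled blue points.

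The mitotic genes were lower at 40 h almost throughout. Of 38 genes on a list of G2/M and mitosis, 37 were measured and 30 were called, all lower, against 0.727% of all genes. All 37 differences were below 0, with a median of -0.52 and a range of -0.77 to -0.13, beside a median of 0 over all genes. The 3 and 3 arrays did not overlap in 36 of the 37, against 8.41% of all genes. The called members included kinases that order mitosis (Plk1, Aurka, Aurkb, Bub1, Bub1b, Ttk, Nek2) and kinesin motors (Kif4, Kif11, Kif20a, Kif23, Kif2c). Among them were also kinetochore proteins (Cenpa, Cenpe, Cenpf, Ndc80), Cdc20 and Ube2c of the ubiquitin pathway, and Foxm1, a transcription factor of mitotic genes. In bulk RNA, fewer dividing cells and less RNA of these genes per dividing cell cannot be told apart. Without 40 h replicate 1, or without 34 h replicate 2, 15 list members were called, and 20 without 34 h replicate 1.

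Kif4, a motor that travels with chromosomes and the spindle midzone, had 7.10, 7.58 and 7.29 at 40 h, against 8.15, 8.12 and 8.02 at 34 h. It fell by 0.77 ± 0.10 (SE, n = 3 arrays each, adjusted p = 0.00144), the largest fall among the called genes, and was 1.71 times as bright at 34 h. The 40 h arrays lay apart from one another, with replicate 2 nearest to the 34 h values, but none reached them. Aspm, which organises spindle poles, had 8.17, 8.27 and 8.17 at 40 h, against 8.84, 9.00 and 8.86 at 34 h. It fell by 0.69 ± 0.08 (adjusted p = 0.00114), with tight arrays on both sides and a wide gap between them. Prc1, which bundles the microtubules of the spindle midzone, had 8.83, 9.14 and 8.92 at 40 h, against 9.65, 9.73 and 9.48 at 34 h. It fell by 0.66 ± 0.08 (adjusted p = 0.00114) without overlap. Tpx2, which activates Aurora A on the spindle, had 8.88, 9.15 and 8.98 at 40 h, against 9.57, 9.65 and 9.56 at 34 h, and fell by 0.59 ± 0.07 (adjusted p = 0.00114). In Prc1 and Tpx2, as in Kif4, 40 h replicate 2 was the highest array of its time.

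Spc25, a kinetochore subunit that is not on the list, had 7.81, 7.84 and 7.87 at 40 h, against 8.24, 8.75 and 8.75 at 34 h. It fell by 0.74 ± 0.11 (adjusted p = 0.00291), and 34 h replicate 1 was the nearest of its time to the 40 h arrays. Hmmr, a microtubule-associated protein of the spindle, had 8.20, 8.43 and 8.44 at 40 h, against 9.11, 9.05 and 8.93 at 34 h, and fell by 0.67 ± 0.09 (adjusted p = 0.00217). Cenpe, a kinetochore motor, had 8.37, 8.93 and 8.66 at 40 h, against 9.30, 9.39 and 9.30 at 34 h, and fell by 0.68 ± 0.11 (adjusted p = 0.00536). Hmmr was separated by a wide gap, whereas in Cenpe 40 h replicate 2 lay nearer to the 34 h arrays than its fellows did. Mtfr2, Kif14, Efcab11, Fanci, Bub1 and Cenpf completed the 12 largest falls, between 0.63 and 0.65. Of the 12, 8 stayed called without any 1 of the 6 arrays. With only the 6 arrays in the fit, Bub1 (adjusted p = 0.0874) and Efcab11 (0.148) were not called, and with the mean of its probe sets Kif14 moved to -0.36 (0.0573). Bub1 and Cenpf were lost without 40 h replicate 1, 40 h replicate 3 or 34 h replicate 2, Fanci also without 34 h replicate 1, and Efcab11 without any array but 40 h replicate 2 (adjusted p up to 0.204).

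**Figure D2:**
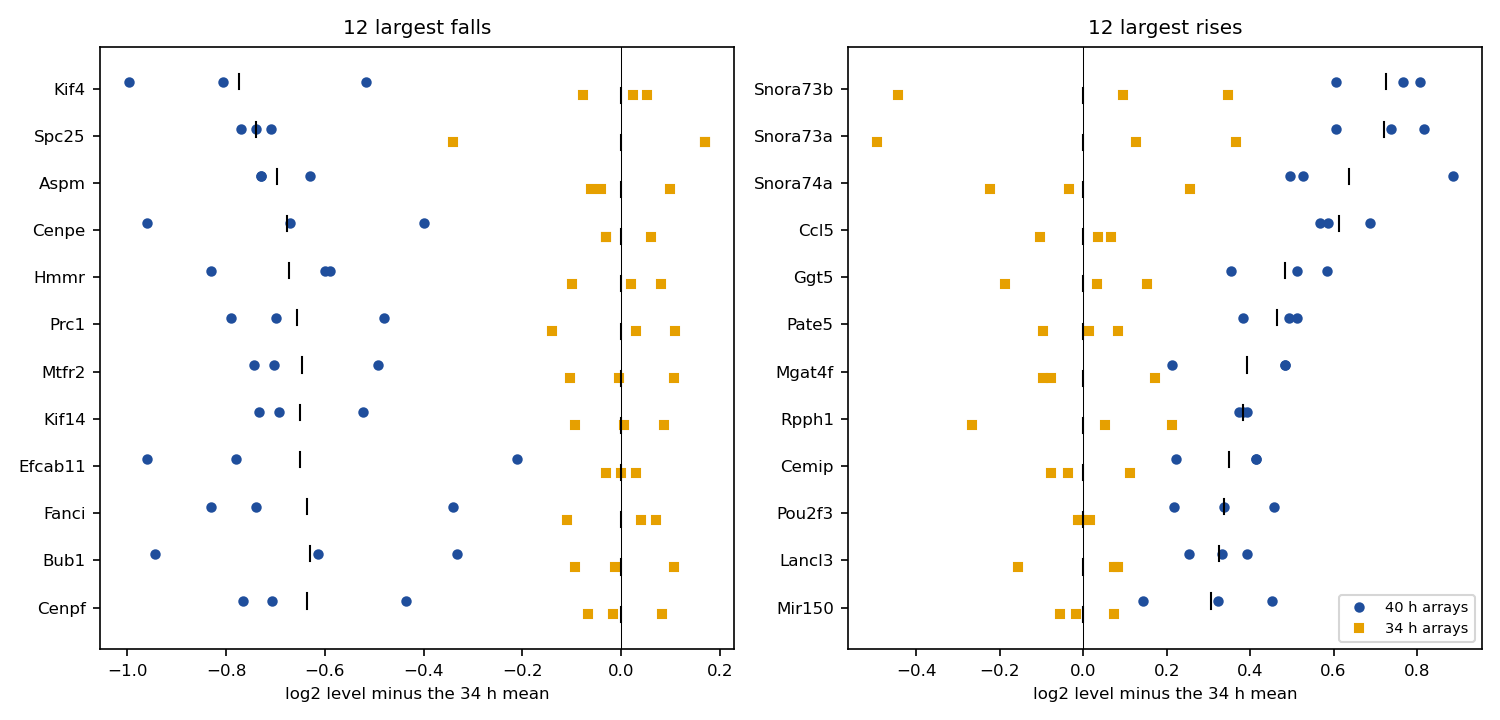
Levels of the 12 largest called falls (left) and rises (right) in every array, as log2 relative to the gene's 34 h mean; circles are 40 h arrays, squares 34 h arrays and ticks the group means. No gene's circles overlap its squares; the 34 h squares of the small RNAs Snora73a and Snora73b are the most spread.

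Members of the list that were not called were lower by smaller or noisier amounts. Ccnb2, a mitotic cyclin, differed by -0.52 (adjusted p = 0.0546), Nuf2, a kinetochore subunit, by -0.60 (0.15) and Top2a, the topoisomerase that untangles chromosomes, by -0.42 (0.0774). Cdk1, the kinase that starts mitosis, had 10.90, 11.19 and 10.97 at 40 h, against 11.37, 11.06 and 11.03 at 34 h. Its groups overlapped and it differed by -0.13 ± 0.12 (95% interval -0.39 to 0.12, adjusted p = 0.715). Of all genes with a Kif symbol, a grouping made after the values were seen, 10 of 38 were called lower, as were 5 of 21 with a Cenp symbol, against 0.727% of all genes, and none of either was called higher. These counts repeat genes of the G2/M list, namely Kif4, Kif11, Kif20a, Kif23, Kif2c, Cenpa, Cenpe and Cenpf, and so are not separate evidence.

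Of 30 measured genes of the preceding phase, G1/S and DNA replication, 1 was called, against 0.727% of all genes called lower. The arrays were separate and lower at 40 h in 14 of the 30, against 8.41% of all genes, and 11 had an unadjusted p under 0.05, against 12.5%. The called gene was Exo1, a nuclease of DNA repair and replication, which fell by 0.43 ± 0.09 (adjusted p = 0.0318). It had 7.30, 7.53 and 7.61 at 40 h, against 7.89, 7.96 and 7.87 at 34 h, and its call was lost without 40 h replicate 1 or any 1 of the 34 h arrays, and with only the 6 arrays in the fit (adjusted p = 0.0784). The list's median difference was -0.18, with 28 of 30 genes below 0. The replication clamp Pcna differed by -0.02 ± 0.06 (adjusted p = 0.943) and the helicase subunit Mcm2 by -0.06 ± 0.07 (adjusted p = 0.791), while Pole, the leading-strand polymerase, differed by -0.40 ± 0.10 (adjusted p = 0.0744). Of 12 measured D cyclins, CDK inhibitors and pocket proteins none was called and the median was 0. Outside the list, 4 genes of DNA repair, chosen one by one after their values were seen, were called lower: Brca1 (-0.52, adjusted p = 0.0142), Fancd2 (-0.49, 0.011), Bard1 (-0.39, 0.0364) and Rad51c (-0.36, 0.0142). All 4 calls were lost without 40 h replicate 1 or without 34 h replicate 2. Of 9 measured genes with a Fanc symbol ending in 1 letter, which leaves out Fancd2, 1 (Fanci) was called lower, against 0.727% of all genes. That grouping was made after the values were seen, 8 of the 9 were below 0, and the median was -0.19. No broader list of repair genes was examined.

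Over the 6 times, the level of the mitotic list came down in a pair of steps. Relative to the 34 h mean, the list median ran from 0.66 to 0.91 in the 22 h arrays, from 0.07 to 0.21 in those of 26 h, from -0.04 to 0.08 in those of 30 h and from -0.07 to 0.05 in those of 34 h. It ran from -0.68 to -0.39 in the 40 h arrays and from -0.84 to -0.65 in those of 46 h. The median of the members' differences was -0.66 for 26 h minus 22 h, -0.14 and -0.04 for the next pair of steps, -0.52 for 40 h minus 34 h and -0.22 for 46 h minus 40 h. Neighbouring steps share arrays, and the later steps span 6 h against 4 h for the earlier ones. Aspm stepped by -0.84 ± 0.08 between 22 h and 26 h (adjusted p = 3.95e-05), by -0.09 ± 0.08 between 30 h and 34 h (0.787), by -0.69 ± 0.08 between 34 h and 40 h and by -0.21 ± 0.08 between 40 h and 46 h (0.482). Over all genes, the 34 h against 30 h step had 3 calls upward (0.015%) and 15 downward (0.0752%), and the 46 h against 40 h step had 5 upward (0.0251%) and 2 downward (0.01%). At 26 h against 22 h, 191 calls were upward (0.958%) and 245 downward (1.23%), and at 30 h against 26 h none was called in limma, with 517 genes at an unadjusted p under 0.05. Of the 145 genes called lower at 40 h, 107 had their lowest mean of the 6 times at 46 h, 36 at 40 h and 2 at 22 h. Whether 40 h departed from the midpoint of 34 h and 46 h was tested for every gene, and none on the mitotic list was called, with 17 of 37 at an unadjusted p under 0.05 against 7.86% of all genes.

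**Figure D3:**
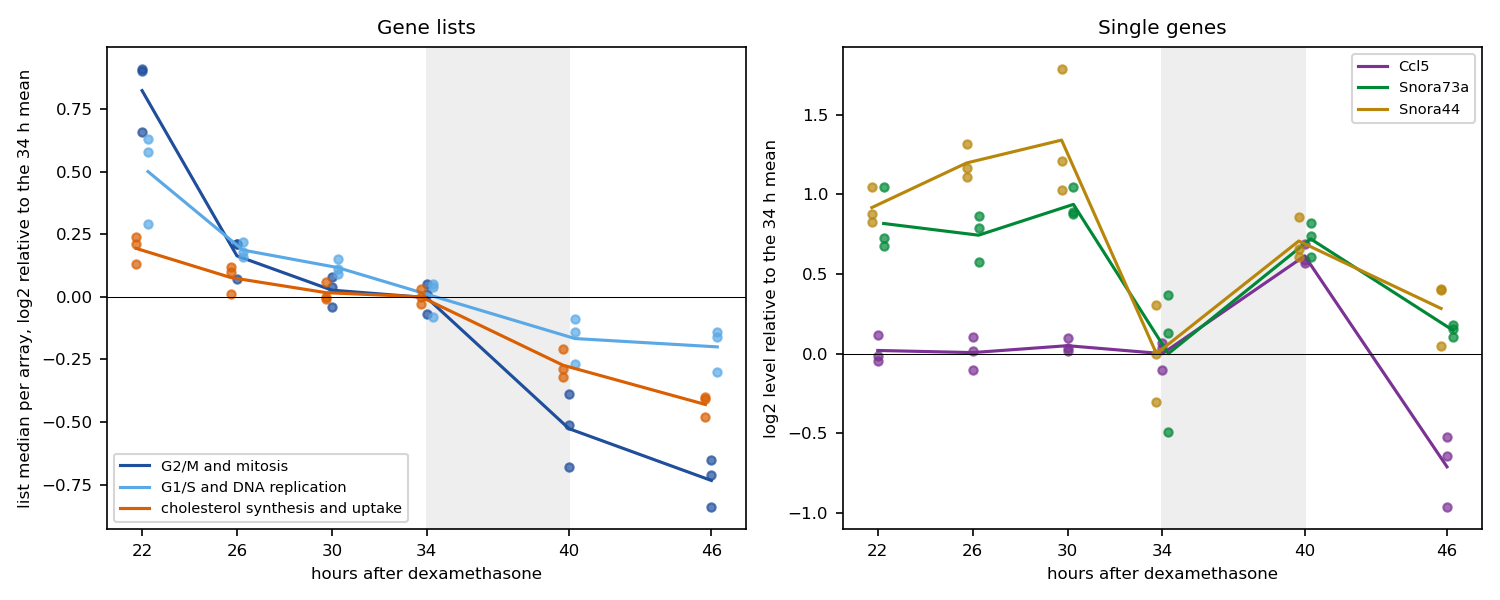
Left, the median of 3 gene lists in each array and, right, the level of 3 genes in each array, against hours after dexamethasone, as log2 relative to the 34 h mean; lines join the means and the shaded band spans 34 h to 40 h. The G2/M list steps down at 22 h to 26 h and again in the band, the cholesterol list steps down in the band, and Ccl5 has its 3 highest arrays at 40 h.

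Promoters of 5 mitotic falls are shown as examples that carry the CHR core, TTTGAA, near the start. The windows are RefSeq sequences of build GRCm38.p6, 250 bases before to 50 after the start, printed 5′ to 3′ on the gene's strand. Capitals mark TTTGAA on the gene's strand and CCAAT, the binding sequence of the factor NF-Y, on either strand (ATTGG when reversed). Kif4 lies at chrX:100625815-100626114 (+), Aspm at chr1:139454523-139454822 (+), Prc1 at chr7:80294201-80294500 (+), Spc25 at chr2:69206164-69206463 (-) and Hmmr at chr11:40733388-40733687 (-).
Kif4: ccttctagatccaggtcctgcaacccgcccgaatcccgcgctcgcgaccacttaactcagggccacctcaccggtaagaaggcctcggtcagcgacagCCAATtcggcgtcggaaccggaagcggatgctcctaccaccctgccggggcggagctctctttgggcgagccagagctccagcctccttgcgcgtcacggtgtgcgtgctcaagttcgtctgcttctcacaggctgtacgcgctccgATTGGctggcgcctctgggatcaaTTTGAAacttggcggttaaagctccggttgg
Aspm: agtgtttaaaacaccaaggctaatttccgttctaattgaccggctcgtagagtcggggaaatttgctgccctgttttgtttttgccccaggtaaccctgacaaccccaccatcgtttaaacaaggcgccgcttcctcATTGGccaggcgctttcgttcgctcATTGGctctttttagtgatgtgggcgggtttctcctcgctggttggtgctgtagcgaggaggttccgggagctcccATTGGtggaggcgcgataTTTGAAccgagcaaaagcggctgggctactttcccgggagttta
Prc1: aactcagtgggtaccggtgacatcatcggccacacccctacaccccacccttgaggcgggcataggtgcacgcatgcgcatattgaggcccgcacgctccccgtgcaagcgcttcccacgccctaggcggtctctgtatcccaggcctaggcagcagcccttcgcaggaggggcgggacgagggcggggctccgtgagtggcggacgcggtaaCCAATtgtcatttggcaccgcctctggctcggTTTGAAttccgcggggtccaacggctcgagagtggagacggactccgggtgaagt
Spc25: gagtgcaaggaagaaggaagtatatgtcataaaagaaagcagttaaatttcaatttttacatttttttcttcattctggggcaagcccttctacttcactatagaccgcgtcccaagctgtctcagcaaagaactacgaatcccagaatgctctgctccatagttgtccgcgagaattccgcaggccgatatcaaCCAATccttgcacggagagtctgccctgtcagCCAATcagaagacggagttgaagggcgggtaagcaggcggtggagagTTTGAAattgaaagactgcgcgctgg
Hmmr: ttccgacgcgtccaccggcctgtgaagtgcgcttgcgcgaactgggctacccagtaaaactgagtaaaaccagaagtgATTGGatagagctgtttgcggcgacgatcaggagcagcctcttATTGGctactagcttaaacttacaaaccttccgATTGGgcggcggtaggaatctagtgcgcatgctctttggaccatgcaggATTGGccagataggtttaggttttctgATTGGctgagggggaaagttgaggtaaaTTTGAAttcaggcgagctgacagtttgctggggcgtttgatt
The first base of TTTGAA lay 20, 7, 25 and 9 bases after the start in Kif4, Aspm, Spc25 and Hmmr, and 5 bases before it in the first of 2 Prc1 windows. These 5 genes were chosen after their values and their windows were seen, and all 5 hold the motif, so they are no sample of the falls. The window of Cenpe, whose fall was larger than those of Hmmr and Prc1, holds no TTTGAA on either strand. Tpx2 is not shown.

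TTTGAA was commoner in the windows of the falling genes, as a description with no test. It stood on either strand in 55 of 138 windows of genes called lower (39.9%), covering 118 of the 145 genes, against 2847 of 19177 windows of all measured genes (14.8%). On the gene's strand within the last 100 bases it stood in 27 of 138 windows (19.6%), against 398 of 19177 (2.1%). The mitotic list had 18 of 34 such windows (52.9%), and falls outside that list had 12 of 111 (10.8%). The 12 include the window of Spc25, so falls outside the list are not free of mitotic genes. In the 25 bases from the start on, 9.42% of the windows of falling genes held it, against 0.55% of all. CCAAT on either strand stood in 68.8% of the windows of falls, against 37.4% of all, and the letters of CCAAT and TTTGAA can share an end base. A match is not a bound site, genes with several starts count several times, and base composition was not matched.

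**Figure D4:**
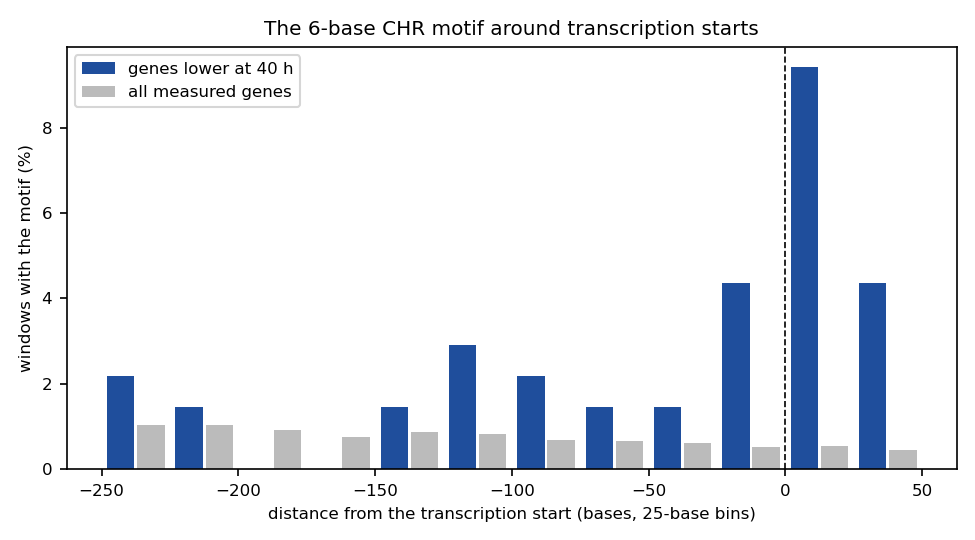
Percent of promoter windows with TTTGAA on the gene's strand in each 25-base bin by distance from the transcription start (dashed line), for 138 windows of genes lower at 40 h and 19177 windows of all measured genes. The falls peak just after the start, at 9.42%, where all genes have 0.55%.

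A few genes on a list of cholesterol synthesis and uptake fell, and the other measured members had differences of the same sign. Of 24 genes on the list, 20 were measured, all 20 differences were below 0 and 4 were called lower, against 0.727% of all genes. The median was -0.27 and the range -0.64 to -0.07, and the member at -0.64 was not called. The arrays were separate and lower at 40 h in 14 of the 20, against 8.41% of all genes. Of the 20, 16 had an unadjusted p under 0.05, against 12.5% of all genes. The list's count of calls turned on single arrays: it was 1 without 40 h replicate 1 or 34 h replicate 2, 2 without 40 h replicate 3 or 34 h replicate 1, and 9 without 40 h replicate 2. It was 10 with arrays scaled to a common median, 8 with the deposited values, and 1 with only the 6 arrays in the fit. Fdft1, squalene synthase, had 10.42, 10.51 and 10.37 at 40 h, against 10.88, 10.71 and 10.79 at 34 h. It fell by 0.36 ± 0.06 (adjusted p = 0.00752) and stayed called without any 1 of the 6 arrays. Lss, which closes the sterol rings, had 8.89, 8.92 and 8.93 at 40 h, against 9.25, 9.31 and 9.28 at 34 h. It fell by 0.37 ± 0.06 (adjusted p = 0.009) with the least spread of the 4, and lost its call without 40 h replicate 1 or 34 h replicate 2. Insig1, which holds the sterol sensor in the endoplasmic reticulum, fell by 0.33 ± 0.06 (adjusted p = 0.0203), and Fdps, which makes farnesyl pyrophosphate, by 0.35 ± 0.07 (0.026). Both were lost without 40 h replicate 1, 40 h replicate 3, 34 h replicate 1 or 34 h replicate 2, and Fdps also without 34 h replicate 3. With only the 6 arrays in the fit, Fdft1 (adjusted p = 0.0803), Insig1 (0.152) and Fdps (0.0874) were not called and Lss was. The list's median stepped by -0.03 between 30 h and 34 h, by -0.27 between 34 h and 40 h and by -0.18 between 40 h and 46 h.

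The lists of fatty acid synthesis and of glutathione S-transferases gave no call with limma. Of 13 measured genes of fatty acid synthesis, 7 had an unadjusted p under 0.05, against 12.5% of all genes, and the median was -0.13; Acss2, which makes acetyl-CoA, differed by -0.27 ± 0.07 (adjusted p = 0.0753) and the lipogenic regulator Srebf1 by -0.01 ± 0.06 (0.979). Of 19 glutathione S-transferases, 10 had an unadjusted p under 0.05, against the same 12.5%, and the median was -0.16. Of 14 measured NRF2 targets, 3 had an unadjusted p under 0.05, against 12.5% of all genes. Nqo1, a quinone reductase, was the 1 called gene of the 14, against 0.727% of all genes called lower. It had 7.26, 7.29 and 7.21 at 40 h, against 7.69, 7.65 and 7.55 at 34 h, and fell by 0.38 ± 0.07 (adjusted p = 0.0195) without overlap, a call lost without 40 h replicates 1 or 3 or 34 h replicates 1 or 2. Ptgfr, the receptor for prostaglandin F2-alpha, had 8.01, 8.28 and 8.02 at 40 h, against 8.57, 8.51 and 8.52 at 34 h. It fell by 0.43 ± 0.07 (adjusted p = 0.00765) after means of 8.42, 8.51, 8.52 and 8.53 at 22, 26, 30 and 34 h, and was lost without 40 h replicate 1 or with only the 6 arrays in the fit (0.0685). Krt19, a keratin on the list of epithelial markers, fell by 0.46 ± 0.09 (adjusted p = 0.0241), and lost its call without 40 h replicates 1 or 3 or 34 h replicate 2, or with only the 6 arrays in the fit (0.0993). The other 9 epithelial markers were not called, and all 10 lay below the 50th percentile of all genes, with Krt19 at percentile 47.2. The summed level of the 10, Krt19 included, was 10.50 to 10.62 at 40 h and 10.59 to 10.65 at 34 h on a log2 scale. Whether epithelial cells had a part in the fall of Krt19 was not tested.

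Of 21 measured core clock genes, 2 were called, both repressors of the loop and both lower, against 0.727% of all genes. Without single arrays the list had from 0 calls (34 h replicate 1 left out) to 4 (40 h replicate 2 left out). Cry1 had 8.06, 8.02 and 8.03 at 40 h, against 8.35, 8.27 and 8.30 at 34 h. It fell by 0.27 ± 0.05 (adjusted p = 0.00964), with hardly any spread at either time, and reached 0.0553 without 34 h replicate 1. Per2 had 7.11, 7.31 and 7.19 at 40 h, against 7.54, 7.61 and 7.47 at 34 h. It fell by 0.33 ± 0.07 (adjusted p = 0.0449), and this call stayed only when 40 h replicate 2 was left out, out of the 6 single arrays (adjusted p up to 0.24). Per3 and Nr1d1 differed by more but with wider spread. Per3, the third Period gene, had 7.19, 7.43 and 7.03 at 40 h, against 7.74, 7.77 and 7.77 at 34 h. It differed by -0.54 ± 0.14 (95% interval -0.85 to -0.24, adjusted p = 0.0988), and its groups did not overlap. Nr1d1, which encodes the repressor REV-ERB alpha, had 9.84, 9.49 and 9.80 at 40 h, against 8.93, 9.23 and 9.08 at 34 h. It differed by 0.63 ± 0.16 (95% interval 0.31 to 0.96, adjusted p = 0.0726), again without overlap. Without 40 h replicate 2 both passed the threshold (adjusted p = 0.0429 for Per3 and 0.0336 for Nr1d1). With only the 6 arrays in the fit, Cry1 (0.124) and Per2 (0.115) were not called, and Per3 (0.0418) and Nr1d1 (0.0381) were.

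The activators of the clock were not called. Arntl, the gene of BMAL1, had 9.60, 9.72 and 9.58 at 40 h, against 9.74, 9.62 and 9.57 at 34 h. The groups overlapped and differed by -0.01 ± 0.10 (95% interval -0.22 to 0.21, adjusted p = 0.985), and its partner Clock differed by -0.04 ± 0.06 (0.856). Dbp, a D-box activator driven by E-boxes, had 8.80, 8.66 and 8.68 at 40 h, against 9.09, 9.03 and 9.00 at 34 h. It differed by -0.33 ± 0.11 (adjusted p = 0.22) with separate arrays. In neighbouring steps, which share arrays with this one, Per3 stepped by -0.81 between 30 h and 34 h and by 0.60 between 40 h and 46 h, Dbp by -0.60 and 0.62, Per2 by -0.29 and 0.29, and Cry1 by -0.19 and 0.17. Nr1d1 stepped by -0.08 and 0.39. The 40 h mean was therefore the lowest of these 4 time points for Per2, Per3, Dbp and Cry1, and for Nr1d1 it was above those of 30 h and 34 h and below that of 46 h.

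**Figure D5:**
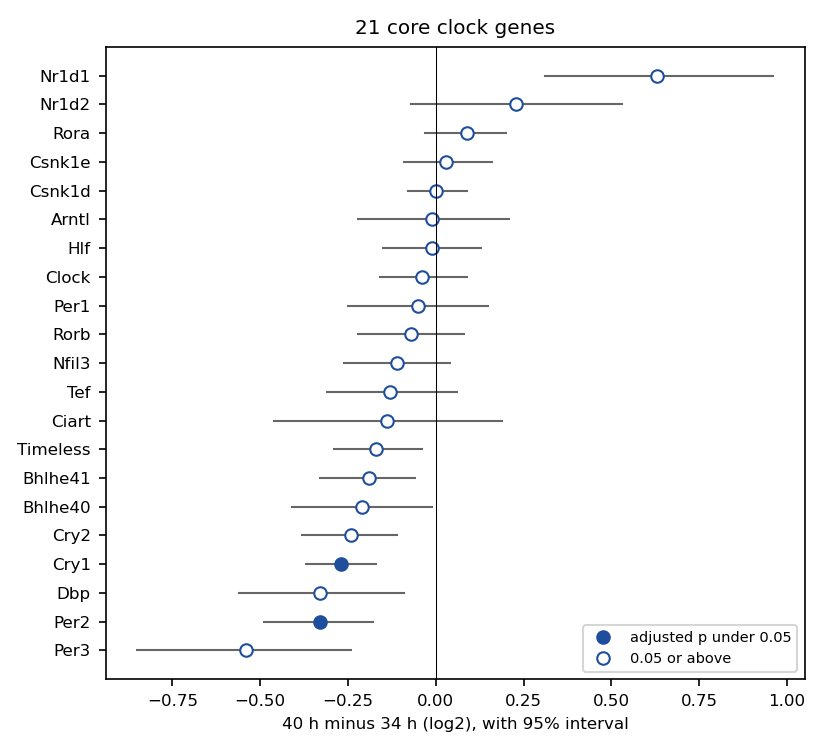
Difference of 40 h minus 34 h for the 21 measured core clock genes, with 95% intervals from limma; filled circles are called genes. Cry1 and Per2 are called, and Nr1d1 and Per3 lie farthest out with wide intervals.

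The promoter of Cry1, the clock gene with the smallest p, is shown for its E-box. Its window lies at chr10:85185005-85185304 (-, GRCm38.p6, RefSeq), and capitals mark CACGTG, whose first base is 60 bases before the start.
Cry1: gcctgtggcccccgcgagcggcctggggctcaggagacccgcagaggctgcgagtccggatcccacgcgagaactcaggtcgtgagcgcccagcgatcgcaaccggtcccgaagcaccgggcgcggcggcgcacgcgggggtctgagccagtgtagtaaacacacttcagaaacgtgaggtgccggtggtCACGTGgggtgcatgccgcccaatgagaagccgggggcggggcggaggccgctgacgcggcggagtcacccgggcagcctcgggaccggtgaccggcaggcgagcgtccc
CACGTG, read on both strands, stood in 6 of 27 windows (22.2%) of 18 core clock genes, against 8.2% of the windows of all measured genes. It stood in 8.0% of the windows of genes called lower. The share describes the clock list, counts genes with several starts several times, and was not tested against the difference between the times. Per2 is not shown.

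Rises were few. Ccl5, the chemokine RANTES, which draws leukocytes, had 9.26, 9.38 and 9.28 at 40 h, against 8.59, 8.76 and 8.73 at 34 h. It rose by 0.62 ± 0.09 (95% interval 0.43 to 0.80, adjusted p = 0.00291), was 1.53 times as bright at 40 h, and stayed called without any 1 of the 6 arrays. Its mean was 8.72, 8.70, 8.74 and 8.69 at 22, 26, 30 and 34 h, and the 46 h arrays had 8.05, 8.17 and 7.73. The step between 40 h and 46 h was -1.32 ± 0.09 (adjusted p = 6.68e-07). Ccl5 was the 1 gene of 19938 called for a departure of 40 h from the midpoint of 34 h and 46 h (0.00502%), by 0.97 (adjusted p = 9.29e-06). No other of the 21 measured inflammatory genes was called for 40 h against 34 h.

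Small non-coding RNAs gave the largest rises. Snora73b and Snora73a take part in the processing of ribosomal RNA in the nucleolus; they are near-identical copies whose probes may share signal, so their values are uncertain and not independent. Snora73b had 11.57, 11.37 and 11.53 at 40 h, against 10.32, 10.86 and 11.11 at 34 h, and rose by 0.73 ± 0.15 (adjusted p = 0.0241). Snora73a had 11.60, 11.39 and 11.52 at 40 h, against 10.29, 10.91 and 11.15 at 34 h, and rose by 0.72 ± 0.15 (0.0314). Snora74a had 9.81, 9.42 and 9.45 at 40 h, against 8.70, 8.89 and 9.18 at 34 h, and rose by 0.63 ± 0.13 (0.028). The 40 h arrays lay above all 34 h arrays, among which replicate 1 was lowest and replicate 3 highest in all of these. In each of them the 34 h mean was the lowest of the 6 times. Snora73b means were 11.51, 11.50, 11.68, 10.76, 11.49 and 10.91 over the 6 times, so the 40 h level was near those of 22 h to 30 h. These 3 calls were lost without 40 h replicates 1 or 3 or 34 h replicates 1 or 2, and with only the 6 arrays in the fit (adjusted p = 0.124, 0.168 and 0.0897 for Snora73b, Snora73a and Snora74a). Rpph1, the RNA of ribonuclease P, which trims transfer RNAs, had 13.49, 13.48 and 13.47 at 40 h, against 12.83, 13.15 and 13.31 at 34 h. It rose by 0.39 ± 0.08 (adjusted p = 0.034), and was lost without any 1 array but 34 h replicate 3, and with only the 6 arrays in the fit (0.226). Rnu3a, a gene of the U3 small nucleolar RNA, was the 1 gene with separate arrays that passed 2-fold and was not called, with 9.41, 8.96 and 9.17 at 40 h against 7.71, 7.98 and 8.28 at 34 h (1.19 ± 0.35, adjusted p = 0.137). With only the 6 arrays in the fit it was called (adjusted p = 0.0149). Its 22 h arrays, which enter the shared spread of the main fit but not this difference, had 10.60, 8.74 and 8.59. Snora44 (0.71 ± 0.17, 0.0578) and Mir181a-1 (0.74, 0.195) also had separate arrays and were not called. Of 15 measured genes on a list of small nucleolar and spliceosomal RNAs, Rpph1 alone was called, against 0.0953% of all genes called higher. As the RNA of ribonuclease P it is neither of these kinds, so no small nucleolar or spliceosomal RNA on the list was called. Of the 15, 11 were above 0, and the median was 0.18 with a median SE of 0.14. The list had stepped by -0.47 between 30 h and 34 h, and its median per array relative to the 34 h mean was 0.33 to 0.49 at 30 h, -0.08 to 0.05 at 34 h, 0.05 to 0.23 at 40 h and -0.01 to 0.13 at 46 h. A contrast of the step between 34 h and 40 h with the step between 30 h and 34 h, added after the data were seen, called 7 genes (0.0351%), of which 5 were small nucleolar RNAs; their values are given among the additional observations. The share that RNA preparation or labelling had in these small RNAs was not tested.

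The remaining rises were single genes. Ggt5, which cleaves glutathione conjugates, rose by 0.48 ± 0.10 (adjusted p = 0.0338), and Cemip, which degrades hyaluronan, by 0.35 ± 0.08 (adjusted p = 0.0364). The mean of each was higher at every later time, with Ggt5 means of 7.52, 7.61, 7.70, 7.94, 8.42 and 8.50 and Cemip means of 9.74, 9.86, 9.89, 10.02, 10.37 and 10.69 over the 6 times. Pate5 rose by 0.46 ± 0.07 (adjusted p = 0.00291) and stayed called without any 1 of the 6 arrays. By contrast, 10 of the 12 largest rises, Ccl5 and Pate5 being the exceptions, were lost without at least 1. Pate5 was a dim gene, and its means of 6.56 at 34 h and 7.02 at 40 h were the lowest of the 12 at each time. Mgat4f (0.40), Pou2f3 (0.34), Lancl3 (0.33) and Mir150 (0.31) completed the named rises. Gadd45a, a growth arrest and stress gene chosen after its values were seen, had 10.23, 10.22 and 10.25 at 40 h, against 9.95, 9.92 and 9.95 at 34 h. It rose by 0.29 ± 0.05 (adjusted p = 0.0141), a small difference with very tight arrays, and its call was lost without 40 h replicates 1 or 3 or 34 h replicates 1 or 2.

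Of 41 gene lists, 11 held a called gene and 30 held none in limma, with 76 of their 516 measured memberships at an unadjusted p under 0.05 against 12.5% of all genes. Medians of the 30 lay between -0.16 and 0.08. The genes that glucocorticoid induces had a median of 0.04 over 21 measured genes, the immediate early genes 0.04 over 27 and the collagens 0.08 over 20.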

How the data were processed

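Each RNA sample was hybridised to its own Affymetrix whole-transcript array, as the labels' protocols say. The authors deposited linear intensity values per probe set. The submitters' processing notes name the tools Affymetrix Expression Console 1.1 and PLIER 2.0, with settings not given in the sources used here. Descriptions of the culture medium vary between label fields.

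Of 35556 probe sets, 21789 had 1 gene symbol in the platform annotation, 1621 had several and 12146 were unnamed here; 21698 of the named ones matched RefSeq genes of GRCm38.p6. For the 999 genes with several probe sets the brightest on average was kept, leaving 19938 genes. Intensities were taken as log2(value + 16), which understates changes of dim genes, and quantile normalized. Means of the 6 times were fitted to 18 arrays with limma 3.58.1 in R 4.3.3, giving 40 h minus 34 h, 40 h minus the midpoint of 34 h and 46 h, and the 5 neighbouring steps. P-values were adjusted by Benjamini-Hochberg over all genes. The fit was tested on simulated data. Same-numbered replicates deviated from their group means with correlations of -0.24, -0.11 and 0.13 and were not taken as pairs.

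The comparison, the 41 gene lists and the tests were chosen with earlier results of these data known. Genes were named by a rule: measured core clock genes, the 12 largest rises and 12 largest falls with separate arrays among called genes, in each list the 4 called members of smallest p at most, up to 8 called departures from the midpoint in each direction, and the 10 largest differences with separate arrays, called or not. Unnamed gene models and receptors of the olfactory and vomeronasal families were skipped, which left out 3 rises and 4 falls. Other genes, uncalled list members among them, were picked after their values were seen. Alternatives were another normalization, constant, gene filter, probe set rule, set of arrays, block, array weights, variance model and each array left out.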

Additional observations from a re-analysis of the deposited data

Results flagged for a closer look

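Ccl5 was singled out because the step into 40 h differed from the step out of it, in a test of that difference. Its mean at 40 h was 0.97 log2 above the midpoint of 34 h and 46 h (limma, adjusted p = 9.29e-06), and in the 3 arrays of 40 h it was higher than in all 3 of 34 h and all 3 of 46 h. The departure lay between 0.87 and 1.02 and was called under each alternative run.

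A contrast added after the data were seen compared the step between 34 h and 40 h with the step between 30 h and 34 h. Both steps use the 34 h arrays, so a stray value there moves them in opposite directions. It called 7 of 19938 genes (0.0351%), each with an adjusted p of 0.0218 in limma and each with a positive change of step. The change was 2.04 ± 0.29 (SE) for Snora44, 1.66 ± 0.26 for Snora73a, 1.65 ± 0.26 for Snora73b, 1.44 ± 0.23 for Snora74a and 1.03 ± 0.16 for Snora3, all small nucleolar RNAs. It was 0.79 ± 0.12 for Pate5 and 0.73 ± 0.11 for the olfactory receptor Olfr1443. The means over 30, 34, 40 and 46 h were 9.68, 8.35, 9.05 and 8.63 for Snora44 and 10.39, 9.67, 9.99 and 9.82 for Snora3. In Snora73a and Snora73b the 34 h value was lowest in replicate 1, and what set it there was not tested.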

How the results depend on the processing

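Genes called were 164 (19 higher, 145 lower). They were 389 with arrays scaled to a common median (39 higher, 350 lower, with the median of all genes at -0.04), 273 with array weights (49 and 224) and 75 with only the arrays of the 2 times (6 and 69). With the deposited values as they stood they were 203, of which 63 were higher (31.0%, against 11.6%), and 133 of the 164 calls were shared. The replicate number as a block, which the correlations above do not bear out as a pairing, gave 115 calls (12 higher, 103 lower). Leaving out 1 of the 6 arrays gave 48 to 351 calls (3 to 76 higher, 45 to 275 lower), with 15 to 33 on the G2/M list. Fits with fewer arrays have fewer degrees of freedom, and the cause of the other shifts was not tested. Without 40 h replicate 2, 147 of the 164 calls were shared. The midpoint test called 2 genes with only the arrays of the times compared, and 1 to 3 genes when an array was left out. Over 57 named genes, 847 values from alternatives kept direction and side of the threshold, 141 lost the call, 10 gained it and 10 turned sign, all 10 in clock genes that were never called. Leaving out 1 array, Arntl ran from -0.05 to 0.04, Clock from -0.09 to 0.03, Hlf from -0.04 to 0.01, Per1 from -0.12 to 0.07 and Rorb from -0.11 to -0.01, and Csnk1e was at -0.03 with median scaling. With both 40 h replicate 2 and 34 h replicate 1 left out, chosen after the data were seen, 177 genes were called, and Hlf was at 0.02, Per1 at 0.06 and Rorb at 0.03.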

Other observations

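Of 13767 probe sets with no single gene symbol, fitted apart from the genes, 3 passed the threshold as brighter and 8 as dimmer at 40 h. Several genes of other roles, chosen after their values were seen, were called lower at 40 h: Ano1, a chloride channel, by -0.51 (adjusted p = 0.012), Vnn1, a pantetheinase, by -0.50 (0.0382), Slc16a4, of the monocarboxylate transporter family, by -0.33 (0.0173), and Mmab, which acts in cobalamin metabolism, by -0.28 (0.00994). Among rises chosen in the same way, Slc38a5, an amino acid transporter, was higher by 0.25 (adjusted p = 0.0193) and Adamts16, a secreted metalloprotease, by 0.22 (0.0344). All 6 of these calls were lost without 40 h replicate 1, and each stayed in 1 to 3 of the 6 fits that left out a single array. Of 300 measured Mir genes 1 was called higher, Mir150, and of 51 Snora and Snord genes 3 were called higher, against 0.0953% of all genes, with a median of 0.08 over the 51.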
